A study of Homo sapiens with 12 samples.

Results

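The vacuolar proton pump (V-ATPase) was described here through 10 of its subunit genes in ovarian cancer cell lines given quinacrine (QC). The members were listed by subunit, but with earlier results of these data known. They are 5 genes of the membrane-embedded V0 sector (ATP6V0A1, ATP6V0B, ATP6V0C, ATP6V0D1 and ATP6V0E1) and 5 genes of the soluble V1 sector (ATP6V1A, ATP6V1B2, ATP6V1C1, ATP6V1D and ATP6V1H). All 10 were found among the 60669 Ensembl IDs of the count table, and all 10 were among the 18720 genes that passed the filter on low counts. RNA-seq libraries were made from 6 established lines, with 1 library per line and treatment, 12 in all. HeyA8, SKOV3 and OV2008 are labelled sensitive to chemotherapy. Their partners HeyA8_MDR, SKOV3_TR and OV2008_C13 are labelled resistant, and by the study's methods they are resistant to carboplatin, taxol and cisplatin, respectively. Each line received 8 µM QC in growth medium for 6 h or buffer in parallel, called vehicle here. By the study's supplement, the HeyA8 lines were grown in DMEM and the SKOV3 and OV2008 lines in RPMI. The 6 lines served as the replicates, 3 in each group of sensitivity and treatment, and a line had no replicate of its own. They form 3 families of a parent and its resistant partner, so they are not fully independent. The tests of QC over the 6 lines do not take this into account.

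The V-ATPase pumps protons into lysosomes, endosomes and the Golgi and so keeps their lumen acidic. The V1 sector on the cytosolic side hydrolyses ATP and drives a central rotor, and the turning of the c-ring in the V0 sector carries protons across the membrane. V1 and V0 can come apart and rejoin, which switches the pump off and on. Quinacrine is a weak base, a class of drug that collects in acidic compartments, and the transcription factor TFEB and its relatives are known to act on lysosomal genes through motifs built around CACGTG.

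Because the sectors were compared at the level of mRNA, the stretches before the start sites are shown first. RefSeq promoter windows (GRCh38.p14, 250 bases before to 50 after the start) were found for 5 members, ATP6V0A1, ATP6V0B, ATP6V0C, ATP6V0D1 and ATP6V1D. The motif CACGTG lay in the windows of 2 of these 5 members, against 7.26% of all 35116 windows, and the longer TCACGTGA, which holds it, in 1 of the 5, against 0.98% of windows. Both motifs read the same on either strand. The last 100 bases before the start are given, 5′ to 3′ on the strand of the gene, for the 2 V0 members with a motif, for ATP6V1D, which had the highest QC estimate of the members, and for ATP6V1G1, a V1 gene outside the 10 that holds the longer motif. Capitals mark the motifs. The windows lie at chr16:67481158-67481257 (minus strand) for ATP6V0D1, chr1:43974860-43974959 (plus strand) for ATP6V0B, chr14:67359805-67359904 (minus strand) for ATP6V1D and chr9:114587669-114587768 (plus strand) for ATP6V1G1.
ATP6V0D1: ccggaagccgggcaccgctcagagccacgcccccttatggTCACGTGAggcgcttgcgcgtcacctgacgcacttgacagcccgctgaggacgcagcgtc
ATP6V0B: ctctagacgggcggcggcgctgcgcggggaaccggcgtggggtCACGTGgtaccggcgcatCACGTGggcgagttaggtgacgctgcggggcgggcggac
ATP6V1D: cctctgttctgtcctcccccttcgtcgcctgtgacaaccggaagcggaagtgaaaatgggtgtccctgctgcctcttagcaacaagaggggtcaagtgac
ATP6V1G1: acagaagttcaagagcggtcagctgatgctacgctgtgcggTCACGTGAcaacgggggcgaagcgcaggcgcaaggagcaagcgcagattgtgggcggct
Counted back from the start, with -1 as the base just before it, the longer motif began at -60 in ATP6V0D1 and at -59 in ATP6V1G1, and the shorter began at -57 and at -39 in ATP6V0B. Neither motif was found in the windows of ATP6V0A1, ATP6V0C and ATP6V1D. Among the subunit genes outside the 10, CACGTG lay in windows of 1 of 7 V1 genes (ATP6V1G1, chosen here for its motif) and 1 of 4 V0 genes (ATP6V0E2, at -72 and -68 in windows of different start sites). A match is a string of letters in the reference and not a measured binding site.

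Total counts lay between 17782556 and 30585059 per library. Markers partly went against the ovarian label. PAX8, a factor of the Müllerian lineage, was at 7.56 to 24.8 CPM (counts scaled to the library total and by TMM) in the OV2008 family. It was at 234 to 480 CPM in the SKOV3 family. SOX17 went the same way, with at most 0.0754 CPM against 40.2 to 70.95 CPM. The other ovarian markers overlapped between these families. WT1 was at 1.73 to 4.01 CPM in OV2008 lines against 0.999 to 3.63 CPM in SKOV3 lines. MUC16 was at 0.926 to 2.35 against 0.106 to 10.88 CPM, and MSLN at 1.5 to 16.94 against 0.591 to 13.05 CPM. The OV2008 family also held 2550 to 11210 CPM of the squamous keratin KRT5 and at most 1.96 CPM of vimentin (VIM). Another mesenchymal marker, CDH2, was at 23.4 to 106 CPM there and overlapped the SKOV3 family at 73.1 to 215 CPM. The leukocyte markers PTPRC and CD3E had at most 9 counts in any library, and CD68 had at most 15. One library stood apart: among 285 genes at least 8-fold higher in HeyA8_MDR than in HeyA8 under vehicle, the HeyA8 QC library lay at a median of 39.6% of the way to its partner on the linear scale, and 52.7% of the way for 218 genes at least 8-fold lower. The other 5 QC libraries lay at 0% to 31.2% in the same measure. Estimates over the lines are given below with and without HeyA8 for the members and for the other subunit genes described in full, and the part of this library's position in them was not tested.

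The V1 subunit ATP6V1D had the highest estimate with QC, and it was higher in all 6 lines. ATP6V1D encodes subunit D of the central rotor, which passes the turning force of V1 to the V0 ring. In the HeyA8 family the level was 91.1 CPM with vehicle and 190 CPM with QC in HeyA8, and 94.6 and 196 CPM in HeyA8_MDR. In the SKOV3 family it was 27.9 and 37.1 CPM in SKOV3, and 27.7 and 44 CPM in SKOV3_TR. In the OV2008 family it was 27.3 and 54.5 CPM in OV2008, and 70.2 and 90.6 CPM in OV2008_C13. The vehicle and QC ranges overlapped across lines, but within each line the QC library was the higher one, by 1.29-fold in OV2008_C13 to 2.08-fold in HeyA8. The log2 estimate over the 6 lines was 0.76 (SE 0.13, 95% interval 0.47 to 1.05), with an unadjusted p of 8.03e-05 and an adjusted p of 0.123 by edgeR's quasi-likelihood test with Benjamini-Hochberg adjustment over all genes. Without HeyA8 the estimate was 0.70, with an adjusted p of 0.2 by the same test. The adjusted p of 0.123 is the smallest that any gene reached in this comparison, so 0 of the 10 members and 0.0% of all genes passed the adjusted threshold of 0.05. DESeq2 did call ATP6V1D on the same libraries, with an adjusted p of 0.000243 beside a log2 estimate of 0.76. Over all alternatives its adjusted p ran from 9.57e-05 in edgeR with no filter to 1 without the line block. In bulk RNA, a shift in the make-up of a culture and a shift per cell cannot be told apart.

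ATP6V1H and ATP6V1C1 were also higher with QC in 6 of 6 lines. ATP6V1H encodes the regulatory subunit H, which couples the sectors and silences ATP hydrolysis in free V1. Its level was 79.3 CPM with vehicle and 111 CPM with QC in HeyA8, 50.9 and 97.5 CPM in HeyA8_MDR, and 53.5 and 61.5 CPM in SKOV3. It was 21.6 and 24.5 CPM in SKOV3_TR, 34.7 and 50.7 CPM in OV2008, and 58.4 and 69.6 CPM in OV2008_C13. HeyA8_MDR had the widest gap and SKOV3_TR the narrowest, and the ranges of vehicle and QC libraries overlapped. The log2 estimate was 0.43 (SE 0.13, 95% interval 0.16 to 0.71), with an unadjusted p of 0.00493 and an adjusted p of 0.176 in edgeR. Without HeyA8 it was 0.42, and without HeyA8_MDR it was 0.32.

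ATP6V1C1 encodes subunit C, a part of the peripheral stalk that leaves the complex when V1 and V0 separate. Its level was 147 CPM with vehicle and 175 CPM with QC in HeyA8, 114 and 144 CPM in HeyA8_MDR, and 70.4 and 75.7 CPM in SKOV3. It was 39.3 and 52.8 CPM in SKOV3_TR, 47.8 and 54.2 CPM in OV2008, and 66.7 and 76.5 CPM in OV2008_C13. The gaps were of 1 direction, with log2 values from 0.10 in SKOV3 to 0.42 in SKOV3_TR. The estimate was 0.25 (SE 0.10, 95% interval 0.02 to 0.48), with an unadjusted p of 0.0326 and an adjusted p of 0.285 in edgeR. Without HeyA8 the estimate was also 0.25, with an unadjusted p of 0.0608, and that p lay between 0.0454 and 0.0944 when each line was left out in turn with the same edgeR fit.

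**Figure D1:**
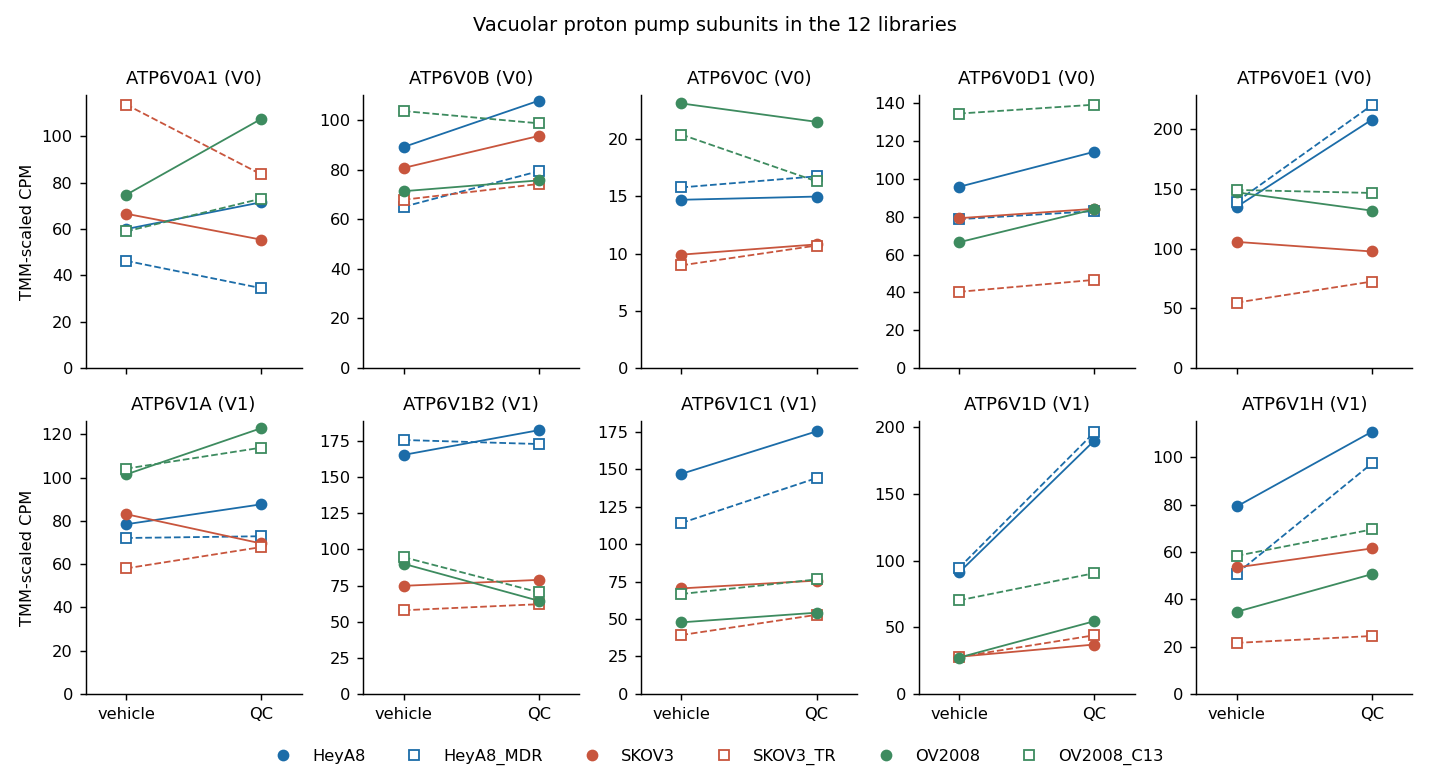
TMM-scaled CPM of the 10 members (linear axes from 0, a panel per gene), with the vehicle and QC library of each line joined, solid for sensitive and dashed for resistant lines. ATP6V1D, ATP6V1H and ATP6V1C1 run upward in all 6 lines, and the HeyA8 and HeyA8_MDR lines of ATP6V1D end at 190 and 196 CPM.

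The catalytic head of V1 did not share this pattern. ATP6V1A encodes subunit A, which binds and hydrolyses ATP, and ATP6V1B2 encodes its partner subunit B. ATP6V1A had 78.4 and 87.6 CPM with vehicle and QC in HeyA8, 72.1 and 72.9 CPM in HeyA8_MDR, 83.1 and 69.5 CPM in SKOV3, 58.0 and 67.9 CPM in SKOV3_TR, 101 and 123 CPM in OV2008, and 104 and 114 CPM in OV2008_C13. Its QC library was the higher in 5 of 6 lines, with SKOV3 as the exception, and the log2 estimate of 0.09 had a 95% interval of -0.15 to 0.33 (0.08 without HeyA8). ATP6V1B2 had 165 and 183 CPM in HeyA8, 176 and 173 CPM in HeyA8_MDR, 74.8 and 78.9 CPM in SKOV3, 57.9 and 62.1 CPM in SKOV3_TR, 90.01 and 64.4 CPM in OV2008, and 94.6 and 70.3 CPM in OV2008_C13. Both OV2008 lines were lower with QC, by log2 values of -0.48 and -0.43, while the other 4 lines lay between -0.02 and 0.14. The estimate over the 6 lines was -0.10 (95% interval -0.37 to 0.17), and -0.15 without HeyA8.

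Among the V0 members, ATP6V0D1 was the only one that was higher with QC in 6 of 6 lines. ATP6V0D1 encodes subunit d, which sits on the c-ring and receives the rotor. Its levels with vehicle and QC were 95.9 and 114 CPM in HeyA8, 78.8 and 83.0 CPM in HeyA8_MDR, 79.3 and 84.2 CPM in SKOV3, 40.3 and 46.7 CPM in SKOV3_TR, 66.5 and 84.0 CPM in OV2008, and 135 and 139 CPM in OV2008_C13. The log2 values ran from 0.05 in OV2008_C13 to 0.34 in OV2008. The estimate of 0.17 (SE 0.10, 95% interval -0.06 to 0.39) had an unadjusted p of 0.129 and an adjusted p of 0.46 in edgeR, and it was 0.15 without HeyA8.

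ATP6V0E1, which encodes the small membrane subunit e, was higher with QC in 3 of 6 lines. Its levels with vehicle and QC were 135 and 208 CPM in HeyA8, 139 and 220 CPM in HeyA8_MDR, 106 and 97.7 CPM in SKOV3, 54.9 and 72.5 CPM in SKOV3_TR, 147 and 132 CPM in OV2008, and 149 and 147 CPM in OV2008_C13. Both HeyA8 lines were higher on the log2 scale (0.62 and 0.66), both OV2008 lines were slightly lower (-0.16 and -0.02), and the SKOV3 lines went opposite ways (-0.11 in SKOV3 and 0.40 in SKOV3_TR). The estimate was 0.23 (SE 0.14, 95% interval -0.07 to 0.54) over the 6 lines, 0.15 without HeyA8 and 0.13 without HeyA8_MDR.

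ATP6V0A1 encodes subunit a, the stator that forms the proton half-channels, and it had no common direction. Its levels with vehicle and QC were 60.0 and 71.5 CPM in HeyA8, 46.3 and 34.5 CPM in HeyA8_MDR, 66.6 and 55.4 CPM in SKOV3, 114 and 83.6 CPM in SKOV3_TR, 74.7 and 108 CPM in OV2008, and 59.0 and 73.1 CPM in OV2008_C13. QC libraries were higher in HeyA8 and both OV2008 lines and lower in HeyA8_MDR and both SKOV3 lines, and the estimate was -0.01 (95% interval -0.33 to 0.32), or -0.06 without HeyA8. ATP6V0B encodes the c'' subunit of the ring, and its QC library was the higher in 5 of 6 lines. Its levels ran from 65.0 to 104 CPM with vehicle and from 74.2 to 108 CPM with QC, and the estimate was 0.15 (95% interval -0.08 to 0.38), or 0.13 without HeyA8.

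ATP6V0C encodes the proteolipid c that forms most of the ring, and its value is uncertain. In the annotation used, 76.3% of its exon bases are shared on the same strand with read-through genes, which themselves had 1 count in all 12 libraries. Reads over shared bases may not have been counted for either gene, so its level of 8.98 to 23.1 CPM in vehicle libraries may be too low. With that limit, its log2 values with QC lay between -0.32 in OV2008_C13 and 0.25 in SKOV3_TR, and the estimate was 0.01 (95% interval -0.29 to 0.31), or 0.00 without HeyA8.

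In counts, 3 of the 10 members had an unadjusted p under 0.05 over the 6 lines, all higher with QC and all in V1. Over all genes 15.2% had such a p, and 7.99% had it with a higher level under QC (7.18% with a lower level). Without HeyA8 the count was 2 of 10, and without the pairing of the libraries by line it was 0. A higher level with QC in all 6 lines was seen in 4 members (ATP6V1C1, ATP6V1D, ATP6V1H and ATP6V0D1), against 4.13% of all genes, and none of the members was lower in all 6 lines, against 4.6% of all genes.

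**Figure D2:**
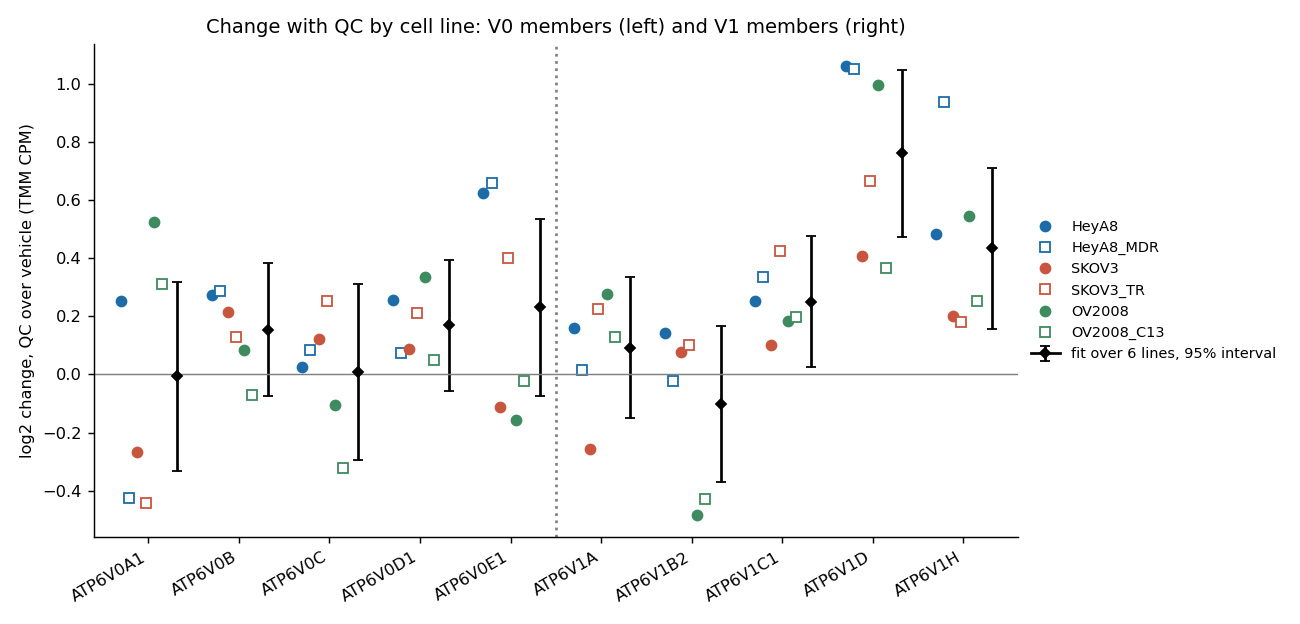
Log2 change with QC over vehicle (TMM CPM) of each member in each line (filled circles sensitive, open squares resistant, colour by family), with the edgeR estimate over the 6 lines and its 95% interval in black. The intervals of ATP6V1C1, ATP6V1D and ATP6V1H lie above 0, and those of the other 7 members include 0.

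The sectors differed little as sets, and this comparison is a description with no test. The median log2 change of the 5 V1 members was 0.25 in HeyA8, 0.34 in HeyA8_MDR, 0.10 in SKOV3, 0.23 in SKOV3_TR, 0.28 in OV2008 and 0.20 in OV2008_C13. The median of the 5 V0 members was 0.25 in HeyA8, 0.09 in HeyA8_MDR, 0.09 in SKOV3, 0.21 in SKOV3_TR, 0.09 in OV2008 and -0.02 in OV2008_C13. The median of all genes tested lay within 0.01 of 0 in every line by these units. V1 minus V0 was 0.12 ± 0.12 (SD, 6 lines) with a range from 0.00 to 0.25, and it was above 0 in 5 lines. Leaving out ATP6V1D gave 0.06 ± 0.09 (above 0 in 4 lines). Taking all 9 V0 and 10 V1 subunit genes tested gave 0.18 ± 0.13 (above 0 in 6 lines). That wider set holds genes at low levels, such as ATP6V0A4 with at most 1.645 CPM in QC libraries.

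The sectors also differ in base composition. The relation of GC content to the changes was weak, and its direction differed between lines. GC content of the canonical transcript was 43.8% to 62.9% in V0 members and 39.7% to 45.5% in V1 members. Over 18488 genes, Spearman's rho between GC content and log2 change was 0.11 in HeyA8, -0.20 in HeyA8_MDR, 0.02 in SKOV3, -0.19 in SKOV3_TR, -0.15 in OV2008 and -0.12 in OV2008_C13. After a correction for GC content and transcript length, V1 minus V0 was 0.04 ± 0.14 (SD, 6 lines) and above 0 in 3 of the 6 lines. The mean corrected change was 0.70 for ATP6V1D, 0.42 for ATP6V1H and 0.19 for ATP6V1C1. All 3 were above 0 in 6 of 6 lines, but ATP6V1C1 was at only 0.00023 in OV2008. The V0 members ATP6V0D1 (mean 0.20) and ATP6V0B (mean 0.17) were above 0 in 6 of 6 lines as well. ATP6V0E1 had a mean of 0.19 and was above 0 in 4 lines.

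**Figure D3:**
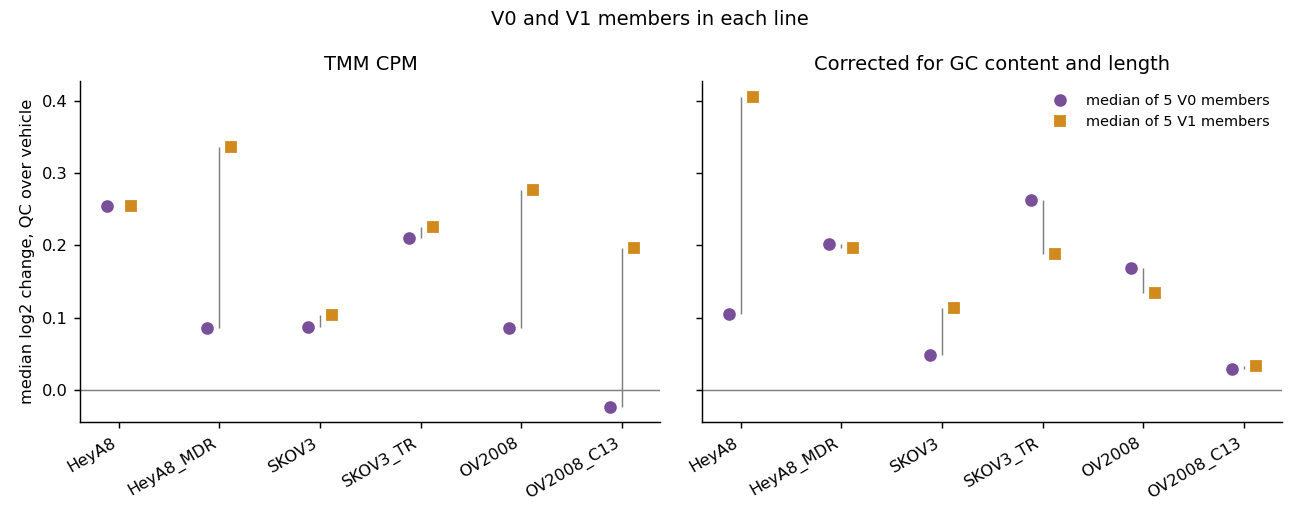
Median log2 change with QC of the 5 V0 members (purple circles) and the 5 V1 members (orange squares) in each line, from TMM CPM on the left and after correction for GC content and length on the right. On the left V1 minus V0 runs from 0.00 to 0.25, and on the right it is above 0 in 3 of 6 lines.

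Whether the response differed between resistant and sensitive lines was tested as the contrast of the QC effects. In sensitive lines 1 of 10 members (ATP6V1D) had an unadjusted p under 0.05, against 6.59% of genes, and in resistant lines 2 of 10 did (ATP6V1D and ATP6V1H), against 6.03%. Without HeyA8_MDR the count in resistant lines was 0. The difference itself had such a p in 0 of 10 members, against 1.16% of genes. Adjusted values passed in 0 members and in 0.0% of genes in each of these 3 comparisons. ATP6V1D differed by -0.13 (resistant minus sensitive, 95% interval -0.75 to 0.49), and ATP6V1H by 0.05 (95% interval -0.56 to 0.65). The most negative value was that of ATP6V0A1, at -0.36 (95% interval -1.02 to 0.30), and the highest was that of ATP6V0E1, at 0.23 (95% interval -0.42 to 0.87). Intervals of this width do not show that the groups responded alike.

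By family, the QC effects of HeyA8, SKOV3 and OV2008 were compared with an F test that was added after the values had been seen. It gave an unadjusted p of 0.0359 for ATP6V0E1, 0.0459 for ATP6V0A1 and 0.0512 for ATP6V1B2 in edgeR, with adjusted p-values of 0.331, 0.353 and 0.36. At the unadjusted threshold 14.0% of all genes passed this test, and at the adjusted threshold 0.0% did. The values by line were given above. The families differ in markers as well as in origin, and the HeyA8 family also in culture medium, which cannot be told apart.

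In vehicle libraries, levels were compared between genes per kb of canonical transcript. ATP6V0E1 (85.9 ± 25.6 CPM per kb, SD, n = 6 lines) and ATP6V0B (80.6 ± 14.9) were at the top, and ATP6V0D1 (50.5 ± 19.2), ATP6V1B2 (38.4 ± 17.1) and ATP6V1D (35.3 ± 20.4) came next. ATP6V1H (23.5 ± 9.39), ATP6V1A (18.1 ± 3.85), ATP6V0A1 (17.1 ± 5.69) and ATP6V1C1 (14.4 ± 7.36) were lower, and the uncertain ATP6V0C stood at 14.2 ± 5.12. Only the step from ATP6V0B to ATP6V0D1 had the same order in 6 of 6 lines, and the other 8 neighbouring pairs had it in 3 to 5 lines. ATP6V1A varied 1.79-fold between the lowest and highest line, and ATP6V1C1 varied 3.74-fold. SKOV3_TR had the lowest level of 7 of the 10 members, among them ATP6V1A, ATP6V1H and ATP6V0E1.

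**Figure D4:**
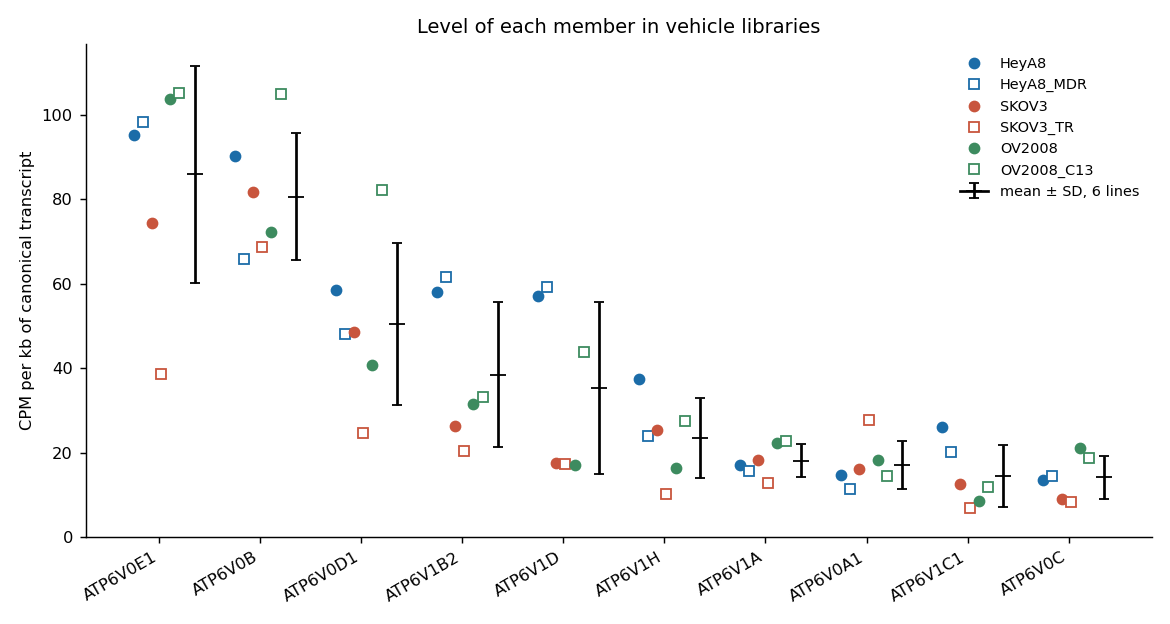
Level of each member in the 6 vehicle libraries, in CPM per kb of canonical transcript (linear axis from 0), with the mean and SD over the lines in black, ordered by the mean. ATP6V1B2, ATP6V1C1 and ATP6V1D are highest in the HeyA8 and HeyA8_MDR libraries.

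Between families, 3 of the 10 members had an unadjusted p under 0.05, a share no higher than the 37.2% of all genes. These were the V1 genes ATP6V1B2, ATP6V1D and ATP6V1C1, with unadjusted p-values of 0.0151, 0.0237 and 0.0334 and adjusted p-values of 0.07, 0.0885 and 0.107 in edgeR's F test. Without the HeyA8 family the count was 0. Scaled to RPLP0, the same edgeR test gave unadjusted p-values of 0.998 for ATP6V1B2, 0.817 for ATP6V1D and 0.75 for ATP6V1C1. RPLP0 itself ran from 859 to 3099 CPM over the vehicle libraries, with an unadjusted p of 0.0112 between families in edgeR's F test. Scaling to it therefore brings its own differences between lines into every gene. Adjusted values passed in 0 of 10 members, against 15.2% of genes. The HeyA8 family held 165 and 176 CPM of ATP6V1B2 with vehicle, against 57.9 to 94.6 CPM in the other 4 lines, so the families did not overlap there. For ATP6V1C1 the HeyA8 family had 147 and 114 CPM and the other lines 39.3 to 70.4 CPM. For ATP6V1D the 2 HeyA8 lines had over 90 CPM, OV2008_C13 had 70.2 CPM and the other lines 27.3 to 27.9 CPM. The HeyA8 family was also grown in a different medium, and family and medium cannot be told apart here.

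Resistant lines did not differ from their partners in a common direction. The count at an unadjusted p under 0.05 was 0 of 10 members against 3.71% of genes, and at an adjusted p it was 0 against 0.0%. Within families the values diverged. ATP6V1H was at log2 -0.64 in HeyA8_MDR and -1.31 in SKOV3_TR but at 0.75 in OV2008_C13, each against its partner. ATP6V1D was at 0.05 in HeyA8_MDR and -0.01 in SKOV3_TR but at 1.36 in OV2008_C13, and ATP6V0D1 was at -0.28, -0.97 and 1.02. Intervals over the 3 families were wide, such as -0.47 to 1.40 for ATP6V1D.

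Among the other subunit genes of the pump, V0 and V1 genes were counted in the same way. Of 5 other V0 genes, 4 were tested: none was higher at an unadjusted p under 0.05, against 7.99% of all genes. ATP6V0E2 and TCIRG1 were lower at that threshold, against 7.18% of all genes. ATP6V0E2, a second gene for subunit e, was lower with QC in 6 of 6 lines (4.6% of all genes were), while ATP6V0E1 was higher in 3. Its level went from 37.9 to 14.7 CPM in OV2008, from 48.1 to 24.9 CPM in OV2008_C13 and from 3.01 to 1.64 CPM in HeyA8. It went from 0.831 to 0.711 CPM in HeyA8_MDR, from 8.20 to 6.99 CPM in SKOV3 and from 22.4 to 21.3 CPM in SKOV3_TR. The log2 estimate was -0.66 (SE 0.20, unadjusted p = 0.00592, adjusted p = 0.18 in edgeR), and -0.62 without HeyA8. TCIRG1, which encodes another form of subunit a, had an estimate of -0.29 (unadjusted p = 0.0453, adjusted p = 0.319 in edgeR) and was lower in 5 of 6 lines, and the estimate was -0.38 without HeyA8.

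Of 8 other V1 genes, 5 were tested. At an unadjusted p under 0.05 none was lower (7.18% of all genes), and ATP6V1E1 and ATP6V1G1 were higher (7.99% of all genes). Both encode stalk subunits, E and G, that pair in the peripheral stalks. ATP6V1E1 went from 72.2 to 201 CPM in HeyA8 and from 113 to 239 CPM in HeyA8_MDR. It went from 62.8 to 83.7 CPM in SKOV3, from 57.5 to 88.0 CPM in SKOV3_TR, from 151 to 189 CPM in OV2008 and from 199 to 214 CPM in OV2008_C13. All 6 lines were higher, the HeyA8 family by over 1 on the log2 scale, and the estimate was 0.67 (SE 0.17, unadjusted p = 0.00187, adjusted p = 0.154 in edgeR), and 0.51 without HeyA8. ATP6V1G1 was higher in 6 of 6 lines, by log2 values of 0.03 to 0.51. Its estimate was 0.30 (unadjusted p = 0.02, adjusted p = 0.239 in edgeR), and 0.26 without HeyA8 (unadjusted p = 0.0571 in edgeR). Over all genes 4.13% were higher in all 6 lines. The tissue-restricted ATP6V1G3 had no counts in any library, and ATP6V0D2, ATP6V1B1 and ATP6V1G2 did not pass the filter.

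**Figure D5:**
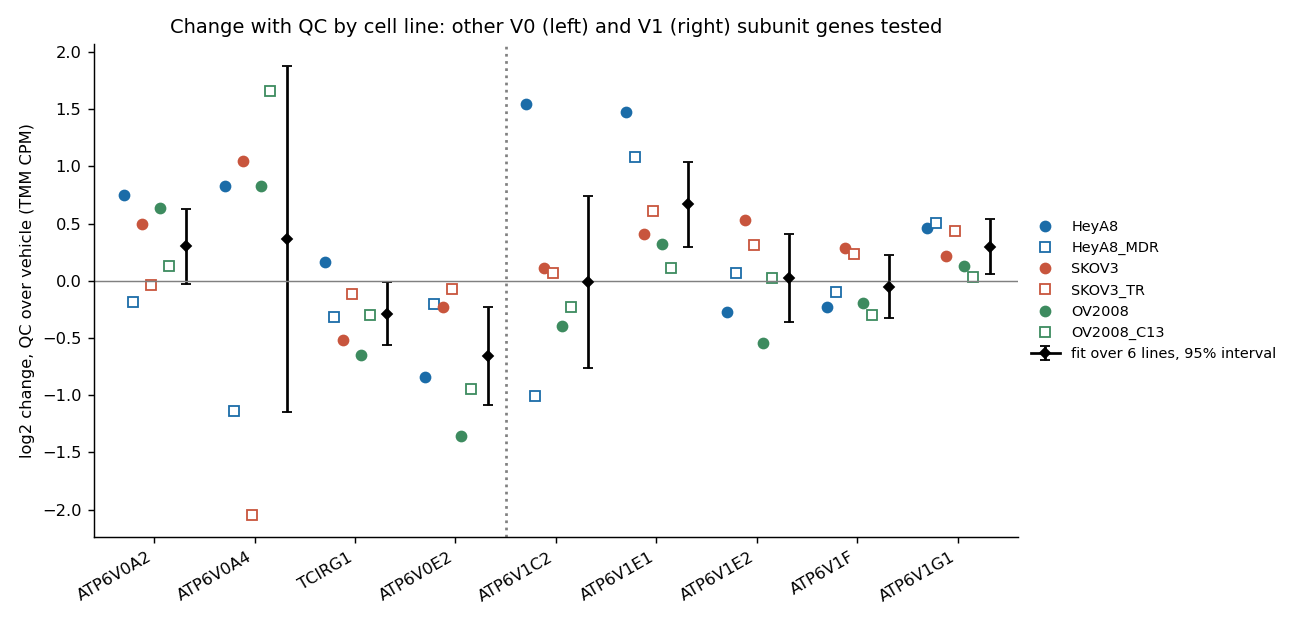
Log2 change with QC over vehicle (TMM CPM) of the 4 other V0 and 5 other V1 subunit genes tested, by line, with the edgeR estimate over the 6 lines and its 95% interval in black. ATP6V0E2 lies below 0 and ATP6V1E1 and ATP6V1G1 lie above 0 in all 6 lines.

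ATP6V0A2, the form of subunit a known from the Golgi, differed between the groups of lines at an unadjusted p of 0.0278 (adjusted p = 1 in edgeR). Its log2 value was 0.75 in HeyA8, 0.50 in SKOV3 and 0.64 in OV2008, against -0.19 in HeyA8_MDR, -0.03 in SKOV3_TR and 0.13 in OV2008_C13. The difference was -0.66 (95% interval -1.24 to -0.09), and -0.60 without HeyA8 (unadjusted p = 0.0805 in edgeR). ATP6V0A2 is named because it alone of the other subunit genes tested had an unadjusted p under 0.05 for this difference. Over all genes 1.16% had such a p.

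Genes that work with the pump were counted against the same shares of all genes, 7.99% higher and 7.18% lower at an unadjusted p under 0.05. Of 13 accessory and assembly genes tested, 2 were higher at that threshold (OXR1 with a log2 estimate of 0.40 and ATP6AP2 with 0.30) and 1 was lower (CCDC115, -0.30), 3 of 13 against 15.2% of all genes in either direction. OXR1 was at 0.21 without HeyA8_MDR (unadjusted p = 0.132 in edgeR). Without HeyA8, ATP6AP2 was at 0.22 (unadjusted p = 0.149 in edgeR) and CCDC115 at -0.27 (unadjusted p = 0.0889). OXR1 stayed under the threshold there (0.43, unadjusted p = 0.0313 in edgeR). Of the 5 Ragulator genes, which tether the pump to nutrient sensing, LAMTOR3 alone had such a p, with an estimate of 0.35 that was 0.21 without HeyA8_MDR (unadjusted p = 0.138 in edgeR). Of the 3 TFEB family genes tested, none had such a p, and their estimates lay between -0.10 and 0.16. Of 7 lysosome genes, 3 were higher (NPC2 at 0.39, NPC1 at 0.36 and LAMP2 at 0.25), and none was lower. Without HeyA8, LAMP2 was at 0.22 (unadjusted p = 0.0891 in edgeR), while NPC2 and NPC1 stayed under the threshold (0.0161 and 0.016). Adjusted p-values of these genes in edgeR were all at 0.169 or above. The median estimate was 0.16 over the 10 members and 0.17 over the 7 lysosome genes, against 0.00 over all genes.

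The members also moved together across libraries only in part. Over the 12 libraries Pearson's r of log2 CPM was highest for ATP6V1B2 with ATP6V1C1 (0.91) and lowest for ATP6V1B2 with ATP6V0A1 (-0.72). These values are a description, since the libraries of a line and of a family share their origin. Outside the lists, and among 10068 genes with a mean of at least 10 CPM, the profiles most like the mean of the standardised members were those of DPH3 (r = 0.98), NEXN (0.97), TFAM (0.97), TAF13 (0.97) and PPP6C (0.96), over the same 12 libraries.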

How the data were processed

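RNA was sequenced from 6 lines with vehicle or QC. The authors deposited raw counts per gene by Ensembl ID, without normalization. The study's methods name TopHat, hg19 and HTSeq, while the submitters' processing notes list STAR 2.7.3a, HTSeq 0.6.1p1 and GRCh38.p13. The table names no build, and neither annotation nor strand setting is given in the sources used here, so no gene coordinates from the table are printed. Symbols came from GENCODE by ID without version and paired 58620 of the 60669 IDs; unpaired IDs held 0.132% of counts.

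In R 4.3.3, edgeR 4.0.16 filtered genes (filterByExpr, minimum count 10, minimum total 15), scaled libraries by TMM and fitted quasi-likelihood models with a term per line (the block) and QC. Vehicle libraries were fitted with family and resistance. Tests were two-sided, with Benjamini-Hochberg adjustment over 18720 genes. The unadjusted threshold of 0.05 is that of the study's methods. Line values are log2 ratios of CPM with a prior count of 2. The libraries of a line deviated together from group means (r across genes 0.89 to 0.93), and the pairing comes from the shared line. The study's general statement on repeated independent experiments is not tied to these libraries, and each line and treatment has 1, so p-values measure spread between lines. Intervals cover this spread, and each value per line rests on 1 library.

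Alternatives were no block (between families, no resistance term), DESeq2 1.42.0, its size factors, library size alone, scaling to RPLP0, no filter and leaving out each line. A lowess correction (fraction 0.5) for GC content and length, the test by family and lines left out for the other listed genes were added after the data were seen. Fits were tested on simulated data. The members and lists were chosen with earlier results of these data known. The genes named are the 10 members, the other subunit genes, up to 3 genes of each further list by p, and the 5 most alike profiles. Plots used matplotlib 3.10.9. Authors' comparisons and protein sequences were not used here.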

Additional observations from a re-analysis of the deposited data

Results flagged for a closer look

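A line far from the other 5 was looked for in 67 sets of 6 values, and chance alone gives about 1 such case in 20 sets. It was found in 2 sets, both in HeyA8_MDR. The log2 change with QC of OXR1, a gene of the TLDc family known to bind the pump, was 1.26 in HeyA8_MDR against -0.06 to 0.40 in the other lines, and the estimate over the lines was 0.40 with HeyA8_MDR and 0.21 without it. That of the Ragulator gene LAMTOR3 was 0.95 in HeyA8_MDR against -0.01 to 0.33, with estimates of 0.35 and 0.21. Neither was found among the 10 members.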

How the results depend on the processing

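Over the 6 lines, 0 members had an unadjusted p under 0.05 without the replicate block and 6 did when scaled to RPLP0, where the median of all genes shifted by 0.18 (log2). DESeq2 and the fit with no filter each called 1 member (ATP6V1D) at an adjusted p under 0.05, and 522 and 791 genes. Leaving out lines gave 0 to 1 genes. In sensitive lines, members at an unadjusted p numbered 0 without the block, 2 with library size alone, 5 scaled to RPLP0 and 1 to 2 with a line left out. Adjusted calls there were 1 member with no filter, 32 genes by DESeq2, 195 genes with no filter and 0 to 18 genes with a line left out. In resistant lines, members at an unadjusted p numbered 0 without the block, 1 with no filter and 0 to 2 with a line left out (0 without HeyA8_MDR), and 35 genes were called with no filter. ATP6V1C1 was added there by DESeq2 (unadjusted p = 0.0358), and ATP6V0E1 by edgeR scaled to RPLP0 (unadjusted p = 0.0376). The resistant minus sensitive difference was called in 1 gene by DESeq2 and 5 with no filter, and resistant against sensitive lines in vehicle in 48 and 136. Between families, members at an unadjusted p numbered 1 with library size alone and 0 to 3 with a family left out (0 without HeyA8). DESeq2 added ATP6V0C (unadjusted p = 0.031). In edgeR scaled to RPLP0, such a p was reached by ATP6V0A1 (0.00584) and ATP6V1A (0.0322) instead. Members called between families at an adjusted p numbered 1 without the resistance term, 3 by DESeq2, 1 scaled to RPLP0 (ATP6V0A1) and 1 with no filter. Genes called numbered 4321, 6582, 7009 and 6589 in that order, and 711 to 2907 with a family left out (711 without OV2008).

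Estimates near 0 changed sign. For QC over the 6 lines, ATP6V0A1 was 0.012 without the block, 0.18 scaled to RPLP0, 0.0399 after the GC content and length correction and -0.11 to 0.0813 with a line left out. ATP6V0C was -0.0291 without the block, -0.0018 with library size alone and -0.0414 to 0.0649 with a line left out, and ATP6V1B2 was 0.0813 scaled to RPLP0. For resistant minus sensitive, ATP6V1H was -0.13 scaled to RPLP0 and -0.20 to 0.21 with a line left out, and ATP6V1D -0.32 to 0.0327 with a line left out. Of 187 other values for 15 member estimates, 16 reversed, 169 kept direction and call, and 2 (ATP6V1D by DESeq2 and with no filter) gained a call. In all settings the estimates of ATP6V1D, ATP6V1H and ATP6V1C1 over the 6 lines stayed above 0. Those of ATP6V0B, ATP6V0D1, ATP6V0E1 and ATP6V1A did so too. The cause of these shifts was not tested. V1 minus V0 lay between 0.09 and 0.14 with a line left out. With 1 library per line, the line-to-line spread limits these tests, and ATP6V0C had the lowest counts, 202 to 613.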
